A study of Rattus norvegicus with 8 samples.

Results

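Glycolysis splits glucose into pyruvate in the cytosol, and cells can then reduce the pyruvate to lactate or pass it to the mitochondria. Osteoblasts, the cells that make bone matrix, take up much glucose and turn much of it into lactate. Many genes of the pathway are switched on together when oxygen is low, through hypoxia-inducible factors.

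The genes described here were 10 genes of glucose uptake, glycolysis and the fates of pyruvate. They were *Slc2a1*, *Hk1*, *Hk2*, *Pfkfb3*, *Aldoa*, *Gapdh*, *Pgk1*, *Eno1*, *Ldha* and *Pdk1*, chosen by name, and every rat probe of the array that carried 1 of these names was taken. They had 27 probes of 45598 rat probes in all. Of these, 26 were clearly above background throughout the non-irradiated or the irradiated group and were tested, among 26399 tested probes. The probe left out, A_43_P10378 of *Pdk1*, was well above background on 3 non-irradiated and 2 irradiated arrays.

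The arrays compared primary osteoblast-like cells with and without a dose of an Er:YAG laser, an infrared laser whose light is taken up by water. The cells came from calvariae of Wistar rats 3 to 5 days old. Irradiated cells (n = 4) received 3.3 J/cm2 over 60 s with the medium removed, and RNA was collected 6 h later. Non-irradiated cells (n = 4) were collected at the same time. The labels name no allele or transgene. The labels list a growth medium with 10% serum and an osteoinduction medium with 50 µg/mL ascorbic acid, 10 mM β-glycerophosphate and 10 nM dexamethasone. Which medium followed on the array dishes, and whether the medium was also taken off the non-irradiated dishes, is not given in the sources used here. Replicates are numbered 1 to 4 in both groups, and irradiated and non-irradiated arrays of a number are a pair. Arrays are called N1 to N4 (non-irradiated) and I1 to I4 (irradiated) below.

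Signals are given as log2 of the quantile-normalized spot signal, so a difference of 1 is a doubling. A level of 1 probe is not comparable with the level of another probe. All 8 arrays lay on 1 slide, 0 spots were saturated, and between 26543 and 30490 probes per array were well above background. All 10 osteoblast markers on the array, among them *Runx2*, *Sp7*, *Col1a1* and *Bglap*, were well above background on all 8 arrays. So were 7 of 10 macrophage, 9 of 10 skeletal muscle, 5 of 7 endothelial and 6 of 7 chondrocyte markers. Of 8 erythroid markers, 4 were so on all 8 arrays (*Hba1*, *Epor*, *Klf1* and *Slc4a1*), and *Hbb*, *Hba2* and *Alas2* were so on 0 arrays. The first principal component over the tested probes well above background on all 8 arrays held 54.4% of the variance. N1 (-72.5), I2 (-45.3) and I1 (-35.4) lay on 1 side of it, and the other arrays lay between 13.3 and 45.3. N1 or I2 was the highest or lowest array at many probes. The difference in pairs 3 and 4 only is therefore also given for some probes of *Hk2*, *Pfkfb3*, *Eno1*, *Ldha*, *Pdk1* and *Kdm3a*. It is not given for other such probes, among them that of *Slc2a1* and several of *Gapdh*.

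The probes that carry the main pattern below are 60 bases long. That of *Ldha*, A_44_P1362456, lies on rn4 at chr1:97411929-97411988 on the plus strand and starts at base 981 of the transcript. The array also holds A_44_P1368821, listed under XR_146441, which covers the same 60 bases and differs at 5 of them. Capitals mark these 5 bases.

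Ldha A_44_P1362456: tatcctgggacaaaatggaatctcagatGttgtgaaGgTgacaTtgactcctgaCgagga
XR_146441 A_44_P1368821: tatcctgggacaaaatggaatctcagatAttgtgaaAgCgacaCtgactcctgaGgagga

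For *Eno1*, the probes at bases 731 and 1395 of the transcript are printed, as their values on every array are given below. The first lies at chr5:167402355-167402413. The other spans 411 bases of the genome, at chr5:167404781-167405191, and so joins sequence of different exons.

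Eno1 A_44_P1360447: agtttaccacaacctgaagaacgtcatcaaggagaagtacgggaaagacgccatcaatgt
Eno1 A_44_P1124319: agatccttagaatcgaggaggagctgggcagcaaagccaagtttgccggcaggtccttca

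For *Gapdh*, the array holds probes that overlap but are not identical. A_44_P1360156 and A_44_P1360392 share 51 positions and differ at 2 of them, which are in capitals.

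Gapdh A_44_P1360156: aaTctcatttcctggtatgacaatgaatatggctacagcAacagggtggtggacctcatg
Gapdh A_44_P1360392: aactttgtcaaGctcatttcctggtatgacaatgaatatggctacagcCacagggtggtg

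The probe of *Pfkfb3* with the largest difference between groups, A_64_P014542, lies at chr17:78262283-78262342 on the plus strand and has no capitals, as no part of it was set against another probe.

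Pfkfb3 A_64_P014542: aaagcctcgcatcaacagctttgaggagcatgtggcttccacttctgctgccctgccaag

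The first question was whether expression of these genes differed 6 h after irradiation. No probe of the 10 genes passed the test. None of the 26 had an adjusted p below 0.1 in limma, where 0% of all tested probes did (0 of 26399), and none had an unadjusted p below 0.05, where 2.54% of all tested probes did (670 of 26399). The smallest p among the 26 was 0.173 (adjusted p = 1.00, limma). An exact test on the signs of 4 pairs cannot go below p = 0.125. The non-irradiated and irradiated values overlapped for all 26 probes, and over all tested probes the groups did not overlap for 0.579%. With 1 probe per gene, the probe with the highest mean signal, 5 of the 10 genes were higher and 5 lower, and the median log2 difference was -0.0017. The median over all tested probes was -0.0034. In pairs 3 and 4 only, 1 of the 26 probes had an unadjusted p below 0.05, against 6.36% of all tested probes, and the median of the 10 genes was -0.025.

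**Figure D1:**
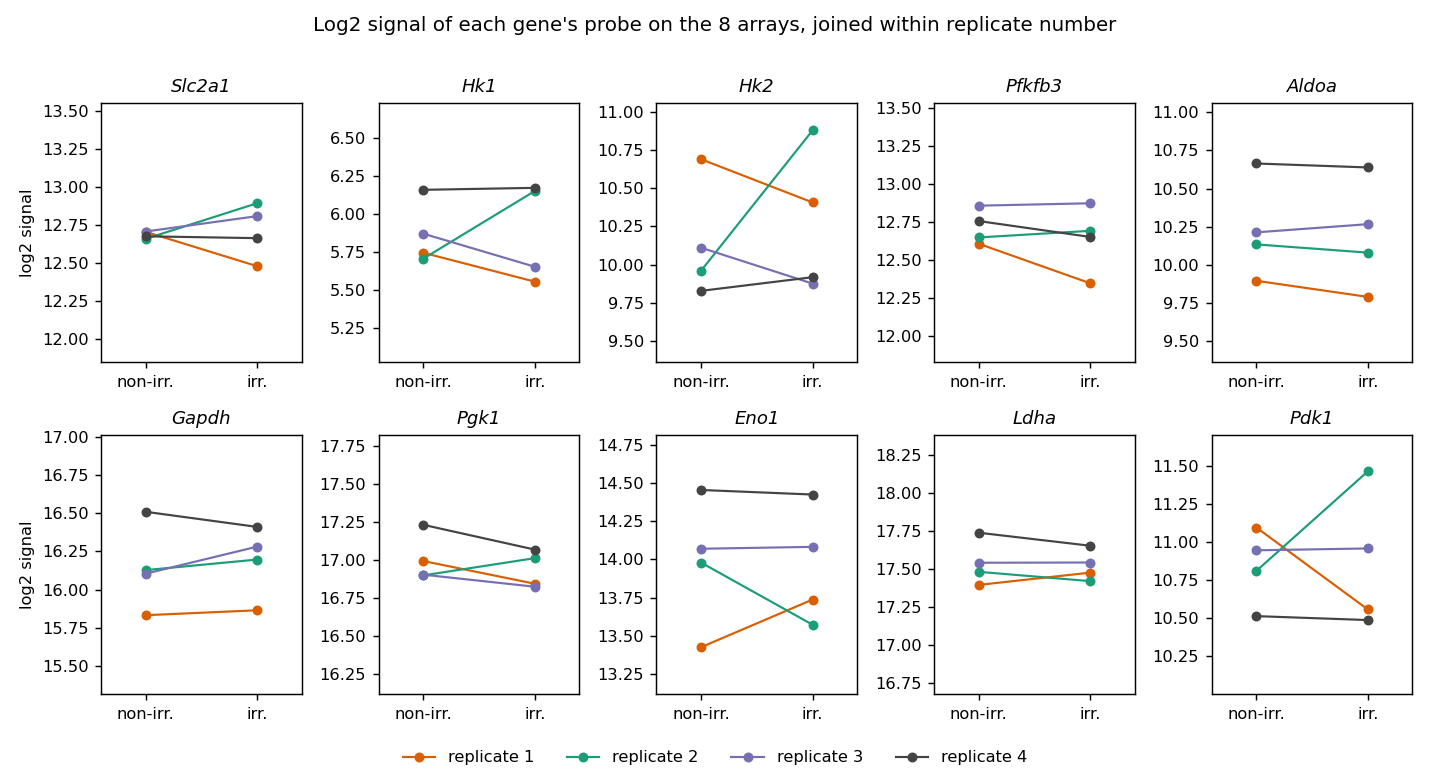
Log2 signal (vertical axis, each panel spanning the same height) of 1 probe per gene on non-irradiated and irradiated arrays, with lines joining the arrays of a replicate number. The lines run in different directions for most genes. Replicate 4 is highest in both groups for *Hk1*, *Aldoa*, *Gapdh*, *Pgk1*, *Eno1* and *Ldha*.

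*Slc2a1* encodes GLUT1, the main glucose transporter of many cell types and the route of glucose into osteoblasts. Its probe, at chr5:139718779-139718838, read 12.70, 12.66, 12.71 and 12.68 on N1 to N4, and 12.48, 12.89, 12.81 and 12.66 on I1 to I4. The non-irradiated values lay close together, and the irradiated ones reached both below and above them. The log2 difference was 0.02 ± 0.13 (SE, n = 4 pairs), with a 95% interval of -0.28 to 0.33 (0.823- to 1.26-fold).

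*Hk1* and *Hk2* encode hexokinases, which phosphorylate glucose and so trap it in the cell. The files write no genome position for the probe of *Hk1*, A_44_P139536. It read 5.74, 5.71, 5.87 and 6.16 on N1 to N4 and 5.56, 6.15, 5.65 and 6.17 on I1 to I4, a difference of 0.01 ± 0.15. The highest 3 values were those of N4, I4 and I2. For *Hk2*, A_44_P1104913 read 10.69, 9.96, 10.11 and 9.83 on N1 to N4 and 10.41, 10.88, 9.88 and 9.92 on I1 to I4. N1, I1 and I2 were the high arrays, and the differences within pairs 1 to 4 were -0.28, 0.92, -0.24 and 0.09. The mean difference was 0.12 ± 0.22 (interval 0.747- to 1.59-fold). It was -0.14 without replicate 2 and -0.073 in pairs 3 and 4 only. The other *Hk2* probe, A_64_P032574, which starts at base 3508 of the transcript and not at 5365, read 7.14, 7.20, 7.27 and 7.56 on N1 to N4 and 6.97, 7.03, 7.23 and 7.46 on I1 to I4. It was lower in all 4 pairs, whose differences were -0.17, -0.16, -0.04 and -0.10, which gave -0.12 ± 0.11 (adjusted p = 1.00, limma). Of all tested probes, 7.58% had all 4 pairs in the same direction.

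*Pfkfb3* encodes an enzyme that makes fructose 2,6-bisphosphate, the activator of phosphofructokinase. Its 3 probes did not give the same picture. A_42_P826384 read 12.61, 12.65, 12.86 and 12.76 on N1 to N4 and 12.35, 12.69, 12.87 and 12.65 on I1 to I4, a difference of -0.08 ± 0.12. A_44_P1114470, well above background on 3 non-irradiated and all 4 irradiated arrays, lay between 3.89 and 4.29 and differed by 0.05 ± 0.11. A_64_P014542, printed above, read 6.31, 5.76, 5.92 and 5.78 on N1 to N4 and 5.86, 6.56, 6.25 and 6.51 on I1 to I4. Here I2, I3 and I4 were higher than their partners, by 0.81, 0.33 and 0.73, and pair 1 gave -0.45, with N1 the highest non-irradiated array. The mean of the 4 pairs was 0.35 ± 0.23 (1.28-fold, interval 0.867 to 1.88; adjusted p = 1.00, limma). Without replicate 1 it was 0.62 (unadjusted limma p of 0.00997, adjusted p = 0.907), and in pairs 3 and 4 only it was 0.53 (unadjusted limma p of 0.025, adjusted p = 0.774). It was smaller without replicate 2 (0.20), without replicate 4 (0.23) and with a measure of each array (below) as a covariate (0.21), with no p below 0.05. With the 3 probes averaged, the gene differed by 0.11.

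**Figure D2:**
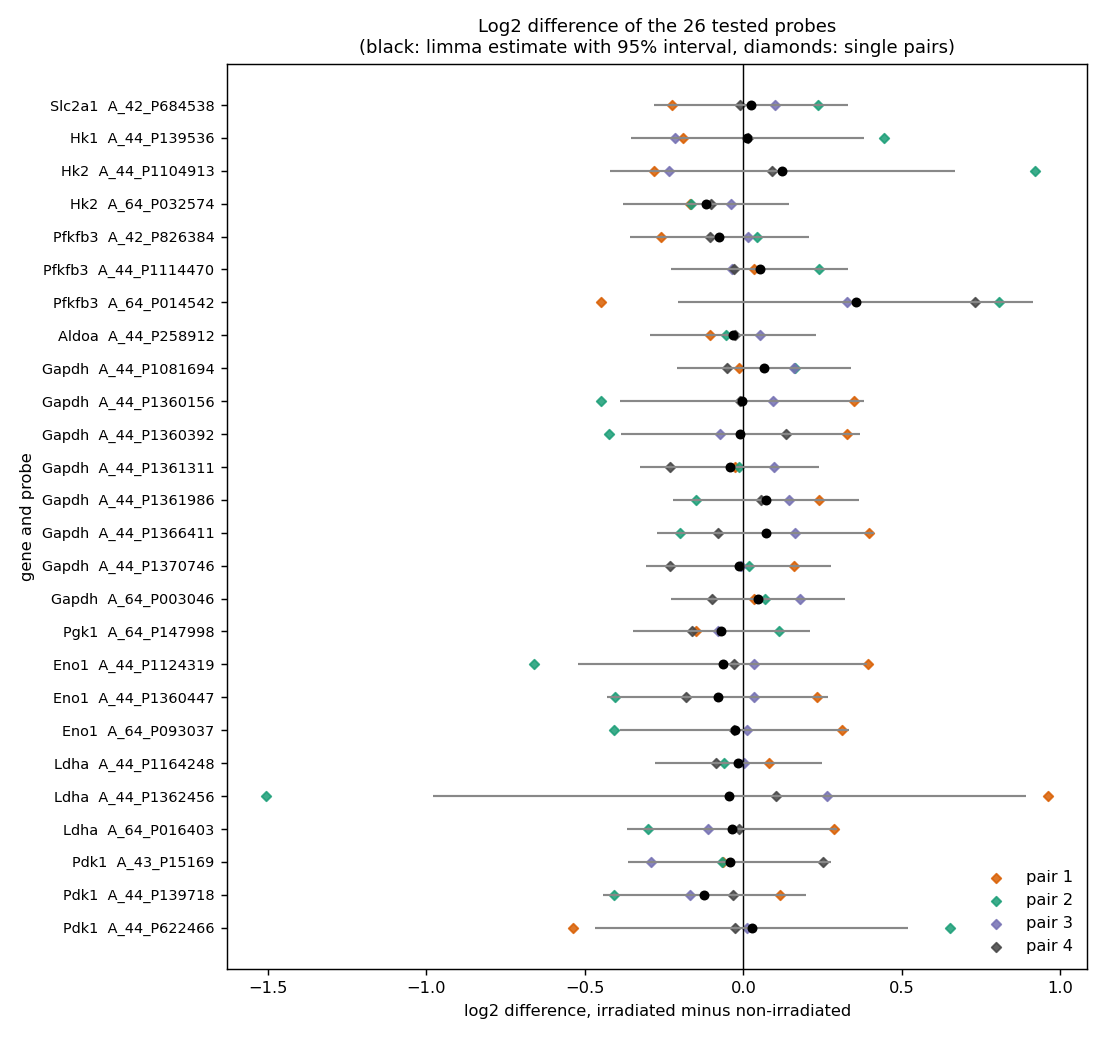
Log2 difference (horizontal axis, irradiated minus non-irradiated) of the 26 tested probes, 1 row per probe. Black points are limma estimates with 95% intervals and diamonds are the 4 pairs. Every interval includes 0, and the widest is that of *Ldha* A_44_P1362456, from -0.98 to 0.89.

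*Aldoa* encodes the aldolase that splits fructose 1,6-bisphosphate. Its probe at chr1:185972062-185972121 read 9.90, 10.13, 10.21 and 10.66 on N1 to N4 and 9.79, 10.08, 10.27 and 10.64 on I1 to I4. The arrays of a pair lay within 0.11 of each other, while the pairs themselves were spread over 0.81. The difference between groups was -0.03 ± 0.11 (interval 0.815- to 1.17-fold).

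*Gapdh* encodes glyceraldehyde-3-phosphate dehydrogenase, often used as a reference gene in qPCR. Its brightest probe, A_64_P003046, read 15.83, 16.13, 16.10 and 16.51 on N1 to N4 and 15.86, 16.20, 16.28 and 16.41 on I1 to I4. Replicate 1 was lowest and replicate 4 highest in both groups, and the groups differed by 0.04 ± 0.11 (interval 0.853- to 1.25-fold). The other 7 *Gapdh* probes differed by -0.04 to 0.07. Probes of like sequence limit what the *Gapdh* values show, since 5 of the 8 share a run of at least 25 bases with 22 probes listed under other names. These 22 were all tested, and across the 8 arrays they correlated with the *Gapdh* probes at r = 0.965 to 0.998. Whether transcripts of *Gapdh* or of such like sequences were bound cannot be told apart. The brightest probe, A_44_P1081694 and A_44_P1361311 shared no such run with a probe of another name.

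*Pgk1* encodes phosphoglycerate kinase, the first step of the pathway that yields ATP. It read 16.99, 16.90, 16.90 and 17.23 on N1 to N4 and 16.84, 17.01, 16.82 and 17.07 on I1 to I4. I1, I3 and I4 were lower than their partners and I2 was higher. The difference was -0.07 ± 0.11 (interval 0.786- to 1.16-fold), and it was negative under all 16 alternatives, with no p below 0.05.

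*Eno1* encodes enolase 1, which forms phosphoenolpyruvate. A_44_P1124319 read 11.64, 12.38, 12.54 and 13.00 on N1 to N4 and 12.04, 11.73, 12.57 and 12.97 on I1 to I4. N1 and I2 were the lowest arrays, so pair 1 gave 0.39 and pair 2 gave -0.66, whereas pairs 3 and 4 gave 0.03 and -0.03. The same order of arrays was seen with A_44_P1360447, which read 8.89, 9.44, 9.30 and 9.94 on N1 to N4 and 9.13, 9.03, 9.33 and 9.76 on I1 to I4, except that N2 was higher than N3 and I3. The mean differences of the 3 *Eno1* probes were -0.07, -0.08 and -0.03, with SE between 0.14 and 0.19. All 3 turned positive without replicate 2 (0.13, 0.03 and 0.10, in the same order). In pairs 3 and 4 only they were 0.0021, -0.075 and -0.0088, and with the covariate 0.05, -0.0037 and 0.05, with no p below 0.05. Each was read from 10 spots per array, and the SD between spots of an array was at most 0.104 on the log2 scale.

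*Ldha* encodes lactate dehydrogenase A, which makes lactate from pyruvate. At its 3′-most probe, A_44_P1164248, it read 17.40, 17.48, 17.54 and 17.74 on N1 to N4 and 17.48, 17.42, 17.54 and 17.65 on I1 to I4. All 8 values lay within 0.34, and the groups differed by -0.02 ± 0.11 (interval 0.824- to 1.19-fold). A_64_P016403, at base 1431, read 16.63, 16.90, 16.98 and 17.04 on N1 to N4 and 16.91, 16.60, 16.87 and 17.03 on I1 to I4. It differed by -0.04 ± 0.14 (-0.062 in pairs 3 and 4 only). It shared a run of at least 25 bases with a probe listed under RGD1562690 (r = 0.976). The probe at base 981, printed above, spread more widely, at 10.00, 11.65, 11.77 and 12.38 on N1 to N4 and 10.97, 10.14, 12.03 and 12.48 on I1 to I4. As at the other probes of the gene, N1 and I2 were the lowest arrays, here followed by I1. The pairs gave 0.96, -1.51, 0.26 and 0.10, which averaged -0.04 ± 0.38. The sign of that mean turned to 0.44 without replicate 2, to 0.18 in pairs 3 and 4 only, and to 0.24 with a measure of each array (below) as a covariate, with no p below 0.05. The probe of XR_146441, which differs at 5 bases, read 7.34, 9.03, 9.15 and 9.74 on N1 to N4 and 8.33, 7.48, 9.35 and 9.85 on I1 to I4. N1 and I2 were thus low at this stretch with both sequences (r = 1.00 over 8 arrays), and which transcript was bound cannot be told apart.

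*Pdk1* encodes a kinase that shuts pyruvate dehydrogenase and so keeps pyruvate out of the mitochondria. A_44_P622466 read 11.10, 10.81, 10.95 and 10.51 on N1 to N4 and 10.56, 11.46, 10.96 and 10.49 on I1 to I4. I2 was highest, and pairs 1 and 2 gave -0.54 and 0.65 around a mean of 0.03 ± 0.20, which was -0.18 without replicate 2 and -0.0068 in pairs 3 and 4 only. The other tested probes differed by -0.04 ± 0.13 (A_43_P15169) and -0.12 ± 0.13 (A_44_P139718, lower in 3 of 4 pairs). Of the 10 genes, only *Pfkfb3* had a tested probe that differed by more than 0.2 on the log2 scale between group means.

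The direction within pairs differed between the pairs. In pair 1 the member genes were mostly lower in irradiated cells, with 3 of 10 higher and a median log2 difference of -0.17. In pair 2, 7 of 10 were higher with a median of 0.091, in pair 3 again 7 of 10 with 0.012, and in pair 4, 2 of 10 with -0.028. The medians of all tested probes in pairs 1 to 4 were -0.064, 0.085, -0.013 and 0.0014. They had the sign of the 10 genes' median in pairs 1 and 2, and the opposite sign in pairs 3 and 4.

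The second comparison was between the 4 replicate numbers. It asked whether arrays of different numbers differed by more than the irradiated and non-irradiated arrays of a number did. Each number also had its own place on the slide (below). It was made with limma's F-test of the replicate terms. None of the 26 probes had an adjusted p below 0.05, where 3.27% of all tested probes did (858 of 26250). The smallest was that of *Gapdh* A_44_P1361986 (adjusted p = 0.0688, limma), with means of 9.93, 10.27, 10.51 and 11.02 in replicates 1 to 4. *Gapdh* A_44_P1366411 came next (adjusted p = 0.09999, limma), with means of 10.27, 10.63, 10.91 and 11.33, and then *Aldoa* (adjusted p = 0.102, limma), with means of 9.84, 10.11, 10.24 and 10.65. In these values the order of replicates was the same. Of the 26 probes, 20 had their lowest array in replicate 1 and 18 had their highest in replicate 4. Among all tested probes these shares were 28% and 26.6%. With 1 probe per gene, the lowest array was of replicate 1 for 7 of 10 genes and the highest was of replicate 4 for 6 of 10. Without replicate 2, 10 of the 26 probes passed this test (the *Ldha* probe at base 981, 3 *Eno1* probes, *Aldoa* and 5 *Gapdh* probes), where 21% of all tested probes did.

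The spread between arrays differed between the probes of *Ldha*. From lowest to highest array, the signal spanned 2.48 at base 981, 0.44 at base 1431 and 0.34 at base 1549. For *Eno1* the spans were 1.05, 1.35 and 1.03 at bases 731, 1395 and 1469. For *Gapdh* they were 0.93 and 0.92 at bases 181 and 192, 1.24 and 1.30 at bases 482 and 484, 1.05 and 1.19 at bases 984 and 996, and 0.52 and 0.68 at bases 1102 and 1121. For *Ldha* the span was thus widest at the most upstream probe, whereas the 3 probes of *Eno1* spanned similar ranges. That *Ldha* probe was also the dimmest, at percentile 88.4 of mean signal among rat probes, against 99.2 at base 1431 and 99.6 at base 1549. The *Gapdh* probes at bases 1102 and 1121, with the narrowest spans, were the brightest of that gene (98.7 and 98.8). For *Eno1* the percentiles were 79.8, 91.7 and 96.2. The part of brightness in these spans was not tested.

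**Figure D3:**
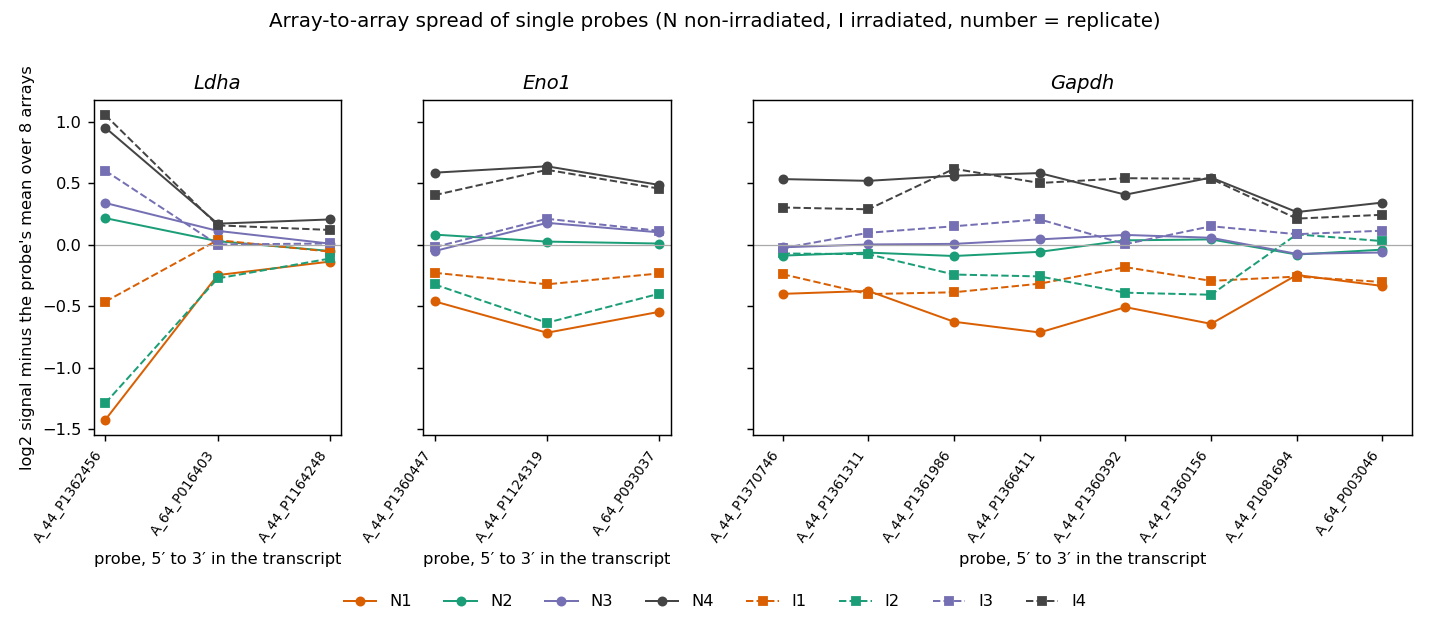
Log2 signal of each probe of *Ldha*, *Eno1* and *Gapdh* minus its mean over the 8 arrays (vertical axis), with probes ordered along the transcript on the horizontal axis. Solid lines are non-irradiated and dashed lines irradiated arrays, with 1 colour per replicate number. N1 and I2 are the lowest arrays at all 3 *Ldha* and all 3 *Eno1* probes, and lie furthest down at the *Ldha* probe A_44_P1362456.

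To describe the arrays themselves, the upstream minus the downstream probe was taken for 1829 other transcripts, centred per transcript, and the median was taken per array. It was -0.15 on N1, -0.10 on I2 and -0.06 on I1, and between 0.03 and 0.14 on the other 5 arrays. The same difference for *Ldha* was -1.29 on N1 and -1.18 on I2, -0.41 on I1, and between 0.27 and 0.93 elsewhere. For *Eno1* and *Gapdh* it stayed between -0.15 and 0.19 on all arrays. For *Pdk1*, the other gene with such a difference, it was highest on I2 (0.47) and lowest on I1 (-0.43), with N1 at 0.04, so I2 was high here and not low. The muscle, endothelial and chondrocyte marker lists also moved with the replicate numbers, but the macrophage list did not. Its summed linear signal was 1737 to 1810 on N1 to N4, 1433 on I2, and 1901 to 2063 on I1, I3 and I4. The summed linear signal of the muscle list was 6070 on N1 and 5023 on I1, against 641 to 1791 on the other arrays. That of the endothelial list was 13040 on N2 and 18157 on I2, against 7051 to 9831 on the others, and that of the chondrocyte list was 48510 to 56320 in replicate 1, against 124593 to 243754. The part of these measures in the results on *Ldha*, *Eno1* and *Gapdh* was not tested. In bulk RNA, fewer cells of a type and less RNA per cell cannot be told apart.

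The 10 genes, with 1 probe each, did not vary as 1 block across the arrays. Of the 45 pairs of genes, 18 correlated above 0.5 and 6 below -0.5, with a median r of 0.33 over the 8 arrays, which share culture numbers and are not independent. The highest were *Eno1* with *Ldha* (r = 0.95), *Aldoa* with *Gapdh* (0.95), *Aldoa* with *Ldha* (0.91) and *Aldoa* with *Eno1* (0.90). For these 4 genes N4 was the highest array and N1 was among the 2 lowest. At A_44_P1104913, *Hk2* ran opposite, at -0.90 with *Eno1* and -0.79 with *Ldha*. Its other probe, A_64_P032574, did not, as it was highest on N4 and lowest on I1, like *Aldoa*. *Pdk1*, at A_44_P622466, correlated with *Slc2a1* at 0.78, with *Hk2* A_44_P1104913 at 0.71, and at -0.71 with *Ldha*. Its probe A_44_P139718 was instead lowest on N1, as *Ldha* was.

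**Figure D4:**
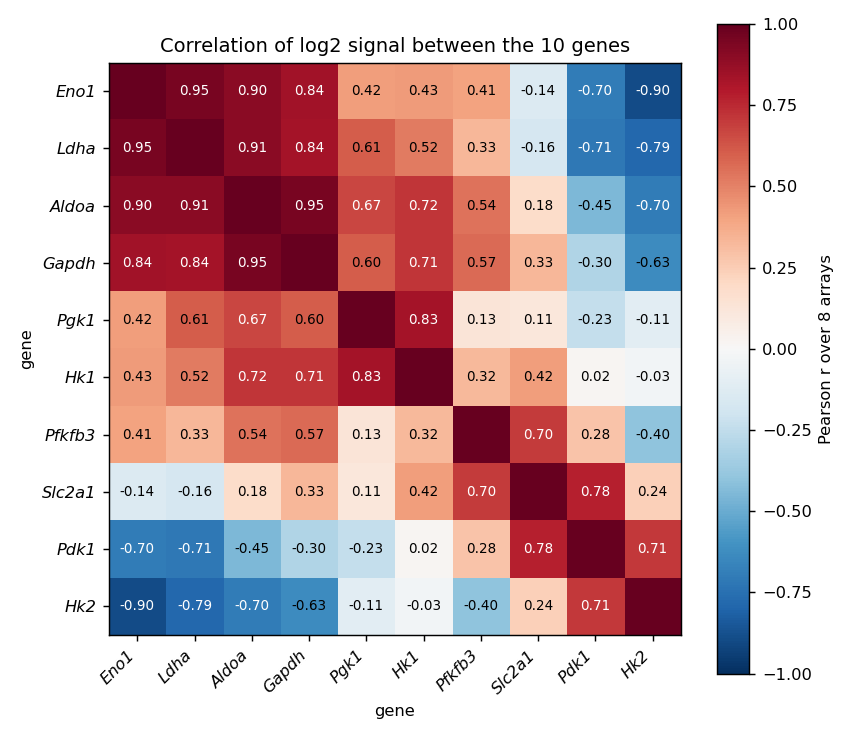
Pearson correlation of log2 signal between the 10 genes over the 8 arrays, with 1 probe per gene on both axes and the value written in each cell. *Eno1*, *Ldha*, *Aldoa* and *Gapdh* form a group of high values (0.84 to 0.95). *Hk2*, at A_44_P1104913, has negative values with all 4 (-0.90 to -0.63).

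The mean of the 10 genes, each in units of its own SD, was lowest on I1 (-1.01) and N1 (-0.39) and highest on N4 (0.73), with I2 and I4 at 0.43. Among 20353 other genes, the pattern most like this mean was that of *Bhlhe41* (r = 0.986), followed by *Ptpn6*, a tyrosine phosphatase (0.985), *Lsm5*, an RNA-binding protein of the Sm-like family (0.978), and 2 probes with no gene name, A_44_P1130684 (0.981) and A_44_P1152307 (0.976). *Bhlhe41* encodes a basic helix-loop-helix repressor of the circadian clock. It read 11.28, 11.36, 11.62 and 12.02 on N1 to N4 and 10.77, 11.87, 11.73 and 11.78 on I1 to I4. The lowest was I1, as in the mean it was picked to match. Its groups differed by -0.03 ± 0.19.

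As some of these genes varied together, their promoters were searched for ACGTG, the core bound by hypoxia-inducible factors, on both strands (ACGTG or CACGT, where CACGTG counts as a match on each strand). RefSeq promoters of GRCr8, from 250 bases before to 50 after each start, were listed for 9 of the 10 genes, *Pgk1* not among them. The motif was held by 8 of the 9 genes in at least 1 promoter, *Hk2* being the other, or 8 of 13 promoters (61.5%). Of all 33469 promoters 19.3% held it, and of all genes 20.9%. It was held by 8 of 22 other glycolysis genes and by 10 of 20 genes of the hypoxia response outside glycolysis. The stretches of *Ldha* (chr1:106507990-106508038, plus strand), *Aldoa* (chr1:190836950-190836984, minus strand) and *Gapdh* (chr4:159652569-159652603, minus strand) are shown, as they belong to the genes that varied together and have the motif before the start. Capitals mark the matches.

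Ldha promoter: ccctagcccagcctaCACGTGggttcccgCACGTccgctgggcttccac
Aldoa promoter: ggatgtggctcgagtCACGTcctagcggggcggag
Gapdh promoter: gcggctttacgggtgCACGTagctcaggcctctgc

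The matches begin 87, 192 and 121 bases before the start. *Aldoa* had other listed promoters with 0 matches, so its stretch belongs to only 1 of its starts. The motif was not limited to *Eno1*, *Ldha*, *Aldoa* and *Gapdh*, which had the highest correlations. *Slc2a1*, *Hk1*, *Pfkfb3* and *Pdk1* held it too. Of these, *Hk1* correlated with *Aldoa* at 0.72 and with *Gapdh* at 0.71. *Pdk1* correlated with *Ldha* at -0.71 at its probe A_44_P622466, but not all *Pdk1* probes ran this way (above). Binding was not measured, and a match in these windows is a description of sequence only.

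The other genes of the pathway were taken from 7 lists with 99 tested genes, 1 probe each. None had an adjusted p below 0.1 in limma, and 3 had an unadjusted p below 0.05, 1 higher and 2 lower, which is 3 of 99 against 2.54% of all tested probes. This count was 0 with no replicate block, with a random replicate block, without replicate 3 and without replicate 4, and 1 of the 3, *Fbp2*, passed the filter on dim probes only through the irradiated group. In sum, 51 were higher and 48 lower, with a median log2 difference of 0.00088.

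*Slc2a6* encodes a glucose transporter of the lysosome. It read 6.93, 6.35, 6.03 and 6.96 on N1 to N4 and 6.79, 5.94, 5.10 and 6.54 on I1 to I4. It was lower in all 4 pairs, with differences from -0.14 to -0.92 and a mean of -0.47 ± 0.16 (unadjusted limma p of 0.0236, adjusted p = 1.00). The other 5 glucose transporters tested lay between -0.16 and 0.28, and the highest, *Slc2a3*, was 0.28 ± 0.30.

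*Pdk4*, a pyruvate dehydrogenase kinase that is known to respond to fasting and to glucocorticoids, read 6.48, 7.48, 8.01 and 6.85 on N1 to N4 and 6.35, 7.21, 7.26 and 6.22 on I1 to I4. It too was lower in all 4 pairs, with a difference of -0.45 ± 0.15 (unadjusted limma p of 0.0237, adjusted p = 1.00). *Slc2a6* and *Pdk4* overlapped between groups, and their p was below 0.05 in 12 of 16 alternatives each. It was above 0.05 without the replicate block (0.245 for *Slc2a6* and 0.266 for *Pdk4*), with a random replicate block (0.0927 and 0.104), without replicate 3 (0.105 and 0.112) and without replicate 4 (0.0657 and 0.105).

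The muscle form of fructose-bisphosphatase, *Fbp2*, a gluconeogenic enzyme, read 4.34, 5.03, 5.10 and 4.09 on N1 to N4 and 4.36, 6.02, 5.35 and 4.60 on I1 to I4. It was higher in all 4 pairs, mostly in pair 2 (0.99), with a difference of 0.44 ± 0.18 (unadjusted limma p of 0.0484, adjusted p = 1.00). It was well above background on 3 non-irradiated and 4 irradiated arrays, and so was tested only through the group in which it was higher, and not where all 8 arrays had to be above background. Its p was below 0.05 in 5 of 15 alternatives. It was 0.0698 with no filter, and the difference was 0.26 without replicate 2 (unadjusted limma p of 0.112).

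In the other 4 lists no gene had a p below 0.05. The largest differences were those of *Tpi1*, triose-phosphate isomerase, among 22 glycolysis enzymes (-0.24 ± 0.18) and *Pgd*, a pentose phosphate enzyme, among 8 of that pathway (0.10 ± 0.12). They were -0.08 for *Tpi1* without replicate 2, and 0.02 for *Pgd* without replicate 1. Among 20 genes of the hypoxia response it was *Kdm3a*, a histone demethylase (-0.31 ± 0.49), and among 12 regulators of the pathway *Arrdc4*, a relative of *Txnip* (0.22 ± 0.13, and 0.05 with normexp background correction). *Kdm3a* read 4.85, 6.20, 6.07 and 6.46 on N1 to N4 and 5.69, 3.95, 6.34 and 6.38 on I1 to I4. Its low arrays were I2 and N1, as for *Ldha* at base 981, and the sign of its mean difference turned to 0.34 without replicate 2 and to 0.09 in pairs 3 and 4 only.

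**Figure D5:**
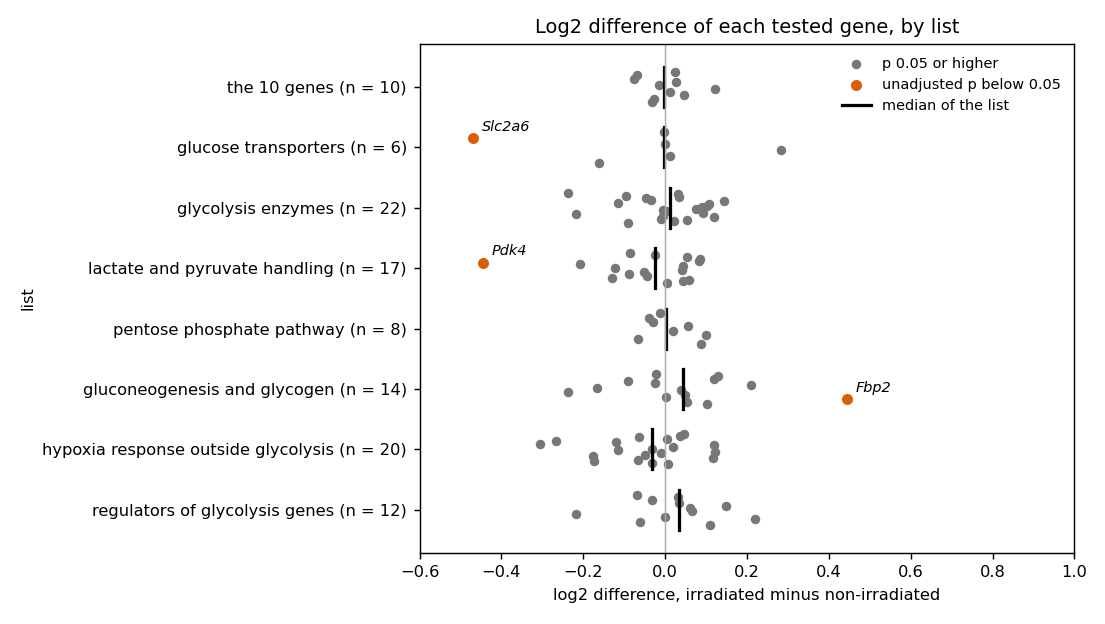
Log2 difference (horizontal axis, irradiated minus non-irradiated) of each tested gene, by list, with the 10 genes in the top row. Orange points have an unadjusted p below 0.05 and black bars are medians. *Slc2a6* (-0.47), *Pdk4* (-0.45) and *Fbp2* (0.44) lie outside the range of the other genes.

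Between replicate numbers, 6 of the 99 genes passed the F-test at an adjusted p below 0.05, against 3.27% of all tested probes. They are named here after their values were seen: *Pfkp* and *Pgam2*, a phosphofructokinase and a phosphoglycerate mutase, and the hypoxia-responsive genes *Vegfa*, *Adm*, *Bnip3* and *Car9*. *Vegfa*, an angiogenic factor, read 12.12 on N1 and 12.19 on I1, and between 10.62 and 10.92 on the other 6 arrays. *Car9*, a carbonic anhydrase, was low in the same culture, at 7.17 on N1 and 7.12 on I1, against 7.94 to 8.69 on the others. *Vegfa* and *Car9* thus went opposite ways in replicate 1, and their differences between irradiated and non-irradiated cells were 0.04 ± 0.12 and -0.18 ± 0.13. The values of *Pfkp*, *Pgam2*, *Adm* and *Bnip3* are not given here, so this contrast is not a description of all 6 genes.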

How the data were processed

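Total RNA (200 ng per culture) was labelled with Cy3 and hybridized to 1-color Agilent arrays, 1 array for each of the 8 cultures. The deposited scanner files hold the intensity of every spot, extracted with Agilent Feature Extraction 11.0.1.1 per the labels, with background subtracted and no normalization between arrays. A second deposited table has 24029 rows of log2 values after the authors' quantile normalization and served as an alternative. The number of arrays limits the precision.

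Processed signals of the 58717 spots of rat probes were log2-transformed and quantile normalized, outlying spots were left out and spots of a probe were averaged. For a probe to be tested, over 50% of its spots had to be well above background on each array of the non-irradiated or of the irradiated group. The groups were set against each other in limma 3.58.1 (lmFit, eBayes, two-sided; R 4.3.3), the replicate number being a fixed block, and p-values were adjusted over all 26399 probes fitted (Benjamini-Hochberg). Limma's F-test of the replicate terms used the 26250 probes with a value on all 8 arrays. Fits were tested on simulated data. Other settings tried were normexp (offset 50), scaling to the 75th percentile, other filters on dim probes, outlying spots kept, the deposited values, a prior with trend and robust estimation, probes of a gene averaged, no block or a random block, and each replicate left out. Pairs 3 and 4 only, and a covariate (the upstream minus downstream measure of each array), were chosen after seeing the data.

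The pairing comes from the scanner file names, which give arrays of a number the same animal number. Deviations from group means correlated within numbers 1 to 4 at 0.608, 0.054, 0.571 and 0.749 across probes, and I2 with N1 at 0.439. Nothing else shows whether replicates are separate animals, so p-values measure the spread between these samples. Slide columns 1 and 3 held the non-irradiated arrays, and columns 2 and 4 the irradiated ones, so position and irradiation cannot be told apart. Replicates 1 and 2 lay in slide row 1 and replicates 3 and 4 in row 2, with the arrays of a number side by side. Position and replicate number therefore cannot be told apart either.

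The 10 genes and all lists were chosen with earlier results of these data known. All 10 genes are named, with the difference of every tested probe, or a range of differences for some probes of *Gapdh*. Of each other list the genes with an unadjusted p below 0.05 are named, at most 4, or else the gene with the largest difference, as well as the 5 genes most like the mean of the 10. Gene names, probe sequences, transcript positions and rn4 positions are those written in the scanner files. Of 397 probe pairs of 1 transcript lying under 200 bases apart on rn4, 98.7% had transcript positions that differed by the same number of bases, within 2. Exon and UTR annotation of rn4 was not used here.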

Additional observations from a re-analysis of the deposited data

Results flagged for a closer look

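Among 66 groups of 4 arrays (33 named probes in each treatment group), 2 held a value that stood apart by Dixon's test at the 95% level, which chance gives in about 1 of 20 groups. Both are probes of *Pdk1* in non-irradiated cells. A_43_P15169 read 9.30 on N4 against 9.92 to 9.98 on N1 to N3, and A_44_P139718 read 5.15 on N1 against 5.67 to 5.77 on N2 to N4.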

How the results depend on the processing

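The count of 0 probes of the 10 genes at an adjusted p below 0.1 was the same under all 16 alternatives in limma. The number tested was 14 with the deposited values and 10 with probes of a gene averaged. It was 25 where all 8 arrays had to be above background, 27 with no filter, and 26 otherwise. The median log2 difference of the 10 genes moved by less than the spread between pairs. Without the replicate block the count of the 26 probes with an unadjusted p below 0.05 was 0, and that of other pathway genes was 0 in place of 3, as it was with a random replicate block. Leaving out 1 replicate gave 0 to 3 such genes (0 without replicate 3 and 0 without replicate 4), and 5 in pairs 3 and 4 only. The count of the 26 probes with an unadjusted p below 0.05 ran from 0 to 1 when a replicate was left out, and was 1 in pairs 3 and 4 only, *Pfkfb3* A_64_P014542 each time. The count of probes that differed between replicate numbers, 0 in the fit reported, was 2 with normexp (*Gapdh* A_44_P1361986 and *Aldoa*), 1 with the deposited values (*Aldoa*), 2 with trend and robust estimation (*Gapdh* A_44_P1361986 and A_64_P003046), and 0 to 10 on leaving out 1 replicate, the highest without replicate 2. The causes were not tested. Over all tested probes, the number with an unadjusted p below 0.05 lay between 246 (no replicate block) and 1678 (pairs 3 and 4 only), against 670. The 26 probes had 4 pairs and a median SE of 0.13 on the log2 scale. Differences under about 0.3 were within most of their intervals and not detectable. The intervals are unadjusted, so 0.3 is not the smallest difference that could pass an adjusted p below 0.1. Larger differences could also go undetected. *Pfkfb3* A_64_P014542 differed by 0.35 (unadjusted limma p of 0.173), and the interval of *Ldha* A_44_P1362456 ran from -0.98 to 0.89. Over all tested probes the smallest unadjusted limma p, 0.000206, had an adjusted p of 0.999917.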
